A study of Mus musculus with 12 samples.

Results

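The genes described here are 10 layer 5 neuron effector genes, Crym, Pcp4, Crim1, S100a10, Igfbp4, Diaph3, Lmo3, Parm1, Tox and Pde1a, among the 51912 genes counted in the cortex of newborn mice (postnatal day 0, P0). They were listed by name as markers of layer 5 projection neurons, and were chosen with earlier results of these data known. RNA depleted of ribosomal RNA was made into ClickSeq libraries, in which adapters are joined to randomly terminated cDNA by click chemistry, with 4 libraries in each of 3 groups. In the dKO-E group H3f3a and H3f3b, the genes that encode histone H3.3, are deleted with Emx1-Cre, a driver active in cortical progenitors and so in the excitatory neurons and glia they produce. In the dKO-N group the same genes are deleted with Neurod6-Cre, a driver active in new postmitotic excitatory neurons. The third group is labelled control, and which of the alleles or drivers the controls carry is not given in the sources used here. Cortical interneurons arise outside the cortex and lie outside both drivers' lineages.

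Layer 5 of the cortex holds the large pyramidal neurons that send axons to the spinal cord, brainstem, striatum and the other hemisphere. Their identity is set by transcription factors such as Fezf2 and Bcl11b, while effector genes further downstream encode the binding proteins, enzymes, surface and cytoskeletal proteins that the neurons use. Histone H3.3 is the variant of H3 that is placed in chromatin outside DNA replication, and it builds up in neurons after their last division. The comparisons show how the effector genes are expressed when H3.3 is deleted from progenitors onward, when it is deleted after cell division has ended, and between these deletions.

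The targeted genes and the libraries were examined first. H3f3a, in counts-per-million (CPM) and in the order of the library numbers, was 30.0, 28.4, 25.8 and 22.9 in dKO-E, then 36.7, 30.8, 22.1 and 37.8 in dKO-N, and 17.7, 117, 16.4 and 121 for the libraries labelled control. Control 1 and control 3 were therefore lower in the targeted gene than each of the 8 knockouts. Their label says only control and gives no H3f3a genotype. In Tox, Lmo3 and Igfbp4 all 4 control libraries lay on the same side of all knockout libraries, and in the other effector genes a knockout group overlapped control. What sets control 1 and control 3 apart in H3f3a was not tested, and counts of calls are also given without them. H3f3b averaged 173 ± 6.10 CPM in dKO-E, 122 ± 16.0 CPM in dKO-N and 106 ± 31.1 CPM in the libraries labelled control (SD, n = 4 each), and the files do not show which part of either gene is deleted. In the order of the library numbers, H3f3b was 121, 76.7, 143 and 84.2 CPM in control. Control 1 and control 3 thus stood apart from control 2 and control 4 in this gene too, within the dKO-N range of 111 to 146 CPM. The libraries held 1452515 to 2503581 counts in genes in dKO-E, 722080 to 3502017 in dKO-N and 1974975 to 3083599 in control, so that the floor of 3 counts equals 0.857 to 4.15 CPM. Genes of the Y chromosome had 1035 counts in dKO-E 3, 274 in dKO-E 4 and at most 3 in any other library. Markers of excitatory cortical neurons (8 genes, Slc17a7 and Neurod2 first) summed to 982 to 1409 CPM in dKO-E, 1570 to 2153 CPM in dKO-N and 2546 to 2897 CPM in control. In tissue RNA of this kind, fewer cells of a type and less RNA per cell cannot be told apart.

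Of the 10 genes, 9 had enough counts for the test, and 7 had at least 10 counts in every library. In dKO-E against control, 5 of the 9 passed edgeR's quasi-likelihood test at an adjusted p under 0.05, against 20.2% of the 11076 genes tested. Of these 5, 2 were higher and 3 lower, against 10.1% of all genes higher and 10.1% lower. In dKO-N against control, 5 of 9 passed, against 11.3% of all genes tested, and again 2 were higher and 3 lower, against 5.04% of all genes higher and 6.29% lower. Between the knockouts, 3 of 9 passed in dKO-E against dKO-N, 1 higher and 2 lower, against 6.84% of all genes tested, of which 3.11% were higher and 3.73% lower. The groups' ranges did not overlap for 6 of 9 genes in dKO-E against control, where that held for 25.5% of all genes, for 5 of 9 in dKO-N against control, where it held for 13%, and for 4 of 9 in dKO-E against dKO-N, where it held for 10.2%. Both knockouts are set against the same controls, so their comparisons are not independent. The median log2 fold change of the 9 genes was -0.076 in dKO-E against control, beside 0.0068 over all genes, and -0.27 in dKO-N against control, beside 0.014 over all genes. Without the libraries labelled control 1 and 3, 3 of the 9 passed in dKO-E (Tox, Diaph3 and Pde1a) and 3 in dKO-N (Tox, Lmo3 and Crym). Calls over all genes also fell in that fit, from 2238 to 1215 in dKO-E and from 1255 to 756 in dKO-N. Without the dKO-E libraries that hold Y-linked counts, 3 passed in dKO-E against control and 1 in dKO-E against dKO-N. There, calls over all genes fell from 2238 to 1225 in dKO-E against control and from 758 to 199 between the knockouts.

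**Figure D1:**
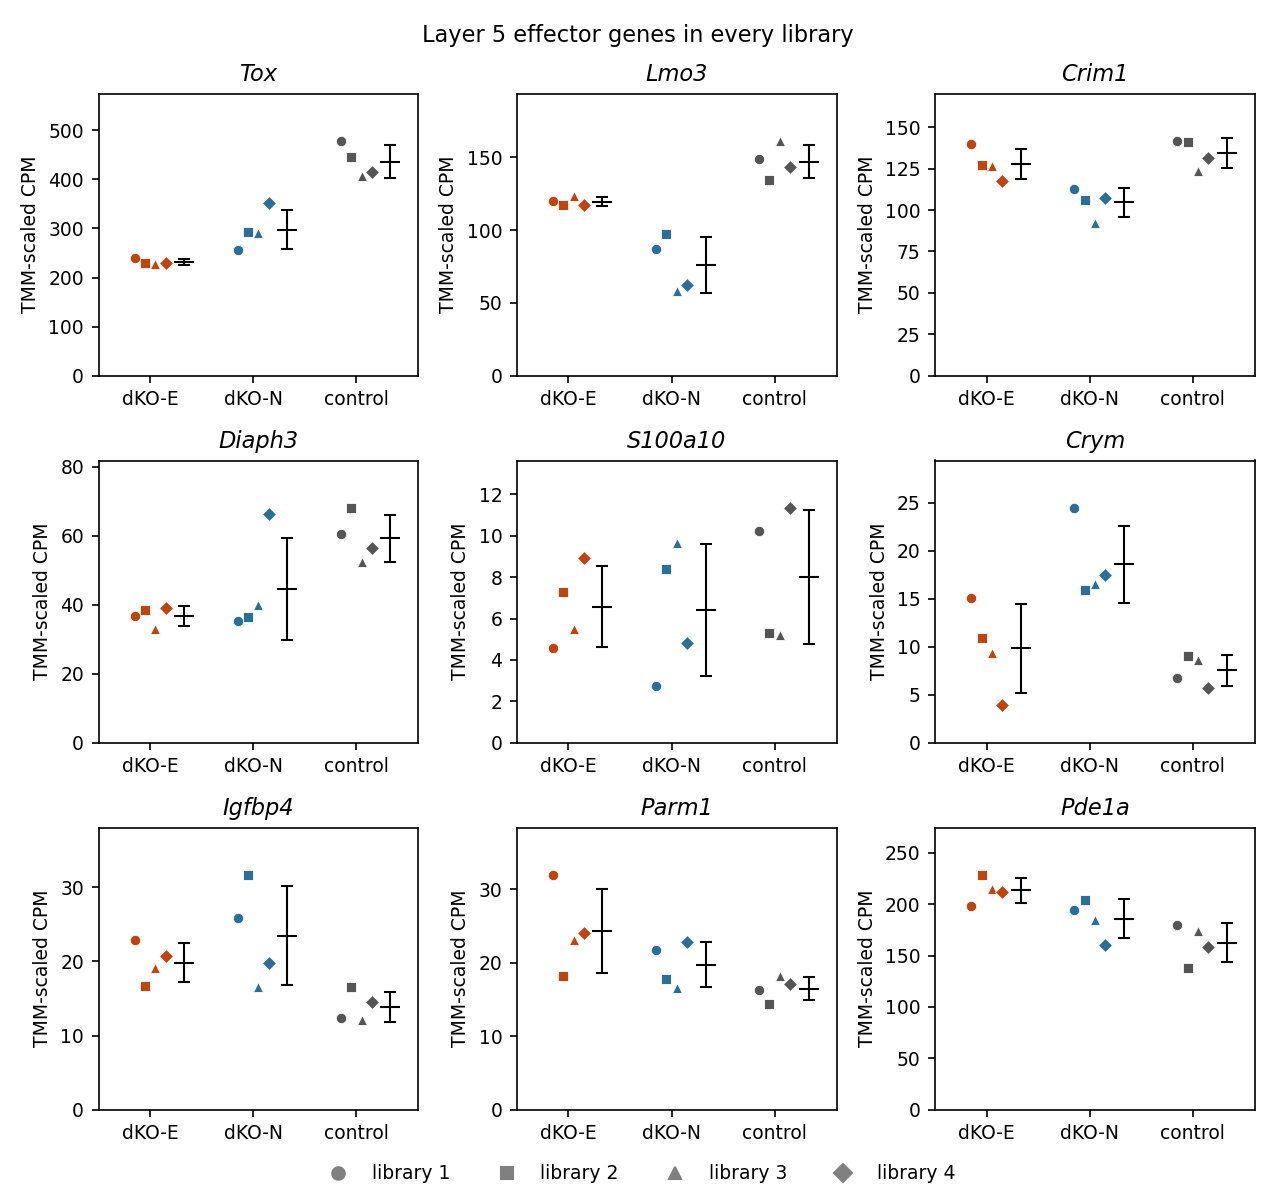
TMM-scaled CPM of the 9 tested effector genes in every library (points, 4 per group), with the mean and SD of each group beside them. Tox lies lower in both knockouts than in control without overlap, Lmo3 is lowest in dKO-N and Crym is highest there.

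The promoters of 3 genes that passed in dKO-N are shown because they moved in different directions and differ in CG content, Lmo3 and Crim1 lower and Igfbp4 higher. Each sequence is the 250 bases before the RefSeq start (GRCm38.p6, the mm10 assembly), read 5′ to 3′ on the gene's strand, with each CG dinucleotide in capitals. Lmo3 is read from the minus strand of chr6:138581969-138582218, Crim1 from the plus strand of chr17:78199998-78200247 and Igfbp4 from the plus strand of chr11:99040994-99041243.
Lmo3: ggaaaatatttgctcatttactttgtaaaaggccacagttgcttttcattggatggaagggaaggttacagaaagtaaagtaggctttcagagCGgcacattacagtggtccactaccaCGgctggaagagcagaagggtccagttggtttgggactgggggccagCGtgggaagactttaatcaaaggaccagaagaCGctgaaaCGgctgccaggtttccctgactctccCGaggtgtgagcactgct
Crim1: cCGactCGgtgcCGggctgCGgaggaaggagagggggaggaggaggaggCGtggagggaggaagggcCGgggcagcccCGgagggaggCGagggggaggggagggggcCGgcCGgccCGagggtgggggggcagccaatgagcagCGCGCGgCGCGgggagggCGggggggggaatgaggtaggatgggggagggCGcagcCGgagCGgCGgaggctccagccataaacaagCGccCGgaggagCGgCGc
Igfbp4: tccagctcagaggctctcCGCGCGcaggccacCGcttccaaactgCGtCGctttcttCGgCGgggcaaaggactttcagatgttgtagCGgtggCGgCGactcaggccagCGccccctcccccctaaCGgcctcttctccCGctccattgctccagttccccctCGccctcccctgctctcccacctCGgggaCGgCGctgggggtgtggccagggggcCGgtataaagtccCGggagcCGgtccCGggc
The Lmo3 window holds 6 CG dinucleotides, the Crim1 window 25 and the Igfbp4 window 22, and the median over 27025 mouse genes is 6 with quartiles of 2 and 16. The TATA-box letters TATAAA, searched on both strands, occur in the Igfbp4 window and in 13.0% of all windows. CAGATG, an E-box form bound by proneural factors of the bHLH class and searched on both strands, also occurs in the Igfbp4 window and in 14.5% of all windows. Neither set of letters occurs in the Lmo3 or Crim1 window. RefSeq windows were matched for 7 of the 10 genes.

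The nuclear regulators of the set, Tox and Lmo3, fell in both knockouts, Tox further in dKO-E and Lmo3 further in dKO-N. Tox (chromosome 4, 6686353 to 6991557, minus strand, mm10), an HMG-box DNA-binding protein best known from T-cell development, was measured at 240, 230, 227 and 230 CPM in dKO-E, at 256, 292, 291 and 352 CPM in dKO-N and at 479, 445, 407 and 414 CPM in control. All knockout libraries lay below all control libraries, and all dKO-E libraries lay below all dKO-N libraries. The log2 fold change was -0.91 (SE 0.0928, adjusted p = 9.77e-10) in dKO-E against control, a fold of 0.531. It was -0.53 (SE 0.0942, adjusted p = 7.87e-05) in dKO-N against control and -0.38 (SE 0.0964, adjusted p = 0.0124) in dKO-E against dKO-N. Both falls against control passed the test in each of the 12 fits that left out 1 library, while the difference between the knockouts did not pass without dKO-N 4 (-0.27, adjusted p = 0.104). That difference also did not pass with counts thinned to equal depth or without the dKO-E libraries that hold Y-linked counts.

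Lmo3 (chromosome 6, 138362918 to 138581968, minus strand), a LIM-only protein that joins transcription factor complexes without binding DNA itself, was measured at 120, 117, 123 and 117 CPM in dKO-E, at 87.1, 97.0, 57.9 and 62.2 CPM in dKO-N and at 149, 135, 162 and 143 CPM in control. The 3 groups did not overlap, with dKO-N lowest and control highest. Lmo3 fell by 0.99 on the log2 scale in dKO-N against control (SE 0.124, adjusted p = 1.6e-07), a fold of 0.505, and it was 0.69 higher in dKO-E than in dKO-N (SE 0.126, adjusted p = 0.000682). Both of these passed in every fit that left out 1 library. The smaller fall in dKO-E against control (-0.30, SE 0.109, adjusted p = 0.0466) did not pass without control 1, 3 or 4 or without any of the 4 dKO-E libraries (-0.32 to -0.25, adjusted p from 0.0672 to 0.154). Scaling by library totals gave -0.17 for it, with an adjusted p of 0.295. The fall of Lmo3 in dKO-E passed in 7 of all 21 alternative fits, and not with DESeq2, a replicate block or equal depth.

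**Figure D2:**
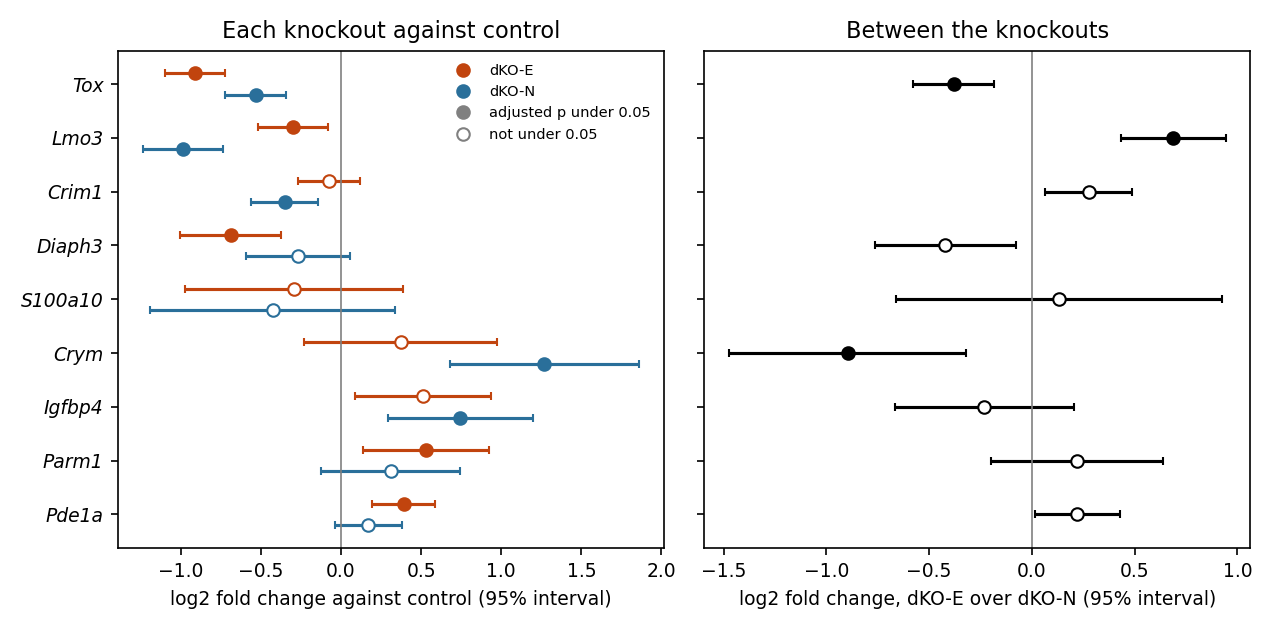
Fitted log2 fold changes with 95% intervals of the 9 tested genes, dKO-E and dKO-N against control on the left and dKO-E over dKO-N on the right; filled points passed edgeR's test. Tox has the lowest value in dKO-E (-0.91), Lmo3 the lowest (-0.99) and Crym the highest (1.27) in dKO-N.

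Among the membrane, secreted and cytoskeletal proteins, Diaph3 fell in dKO-E, Crim1 fell and Igfbp4 rose in dKO-N, and Parm1 rose in dKO-E. Diaph3 (chromosome 14, 86655367 to 87141235, minus strand), a formin that builds unbranched actin filaments, was measured at 36.6, 38.5, 32.8 and 39.2 CPM in dKO-E, at 35.4, 36.4, 40.0 and 66.4 CPM in dKO-N and at 60.4, 68.2, 52.3 and 56.3 CPM in control. All dKO-E libraries and dKO-N 1 to 3 lay below every control library, and dKO-N 4 lay within the control range. Diaph3 changed by -0.69 in dKO-E against control (log2, SE 0.155, adjusted p = 0.00112), which passed in all 12 fits that left out 1 library. In dKO-N against control the value was -0.27 (95% interval -0.59 to 0.055, adjusted p = 0.33), and without dKO-N 4 it passed at -0.67 (adjusted p = 0.00477). The difference between the knockouts did not pass (-0.42, adjusted p = 0.126) and was -0.020 without dKO-N 4.

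Diaph3 is also expressed by dividing cells, so markers of cycling cells (15 genes, Mki67 and Top2a first) are set beside it. Their summed level was 198, 196, 166 and 177 CPM in dKO-E, 148, 199, 199 and 304 CPM in dKO-N, and 194, 204, 140 and 140 CPM in control. The library dKO-N 4 was the highest of all 12 on this sum, as it was highest in its group for Diaph3. Of 11 cycling markers tested, none passed in dKO-E against control, against 20.2% of all genes. In dKO-N against control 1, Cenpf, was higher, against 11.3% of all genes that passed. The part of the cycling cells in the Diaph3 values was not tested.

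**Figure D3:**
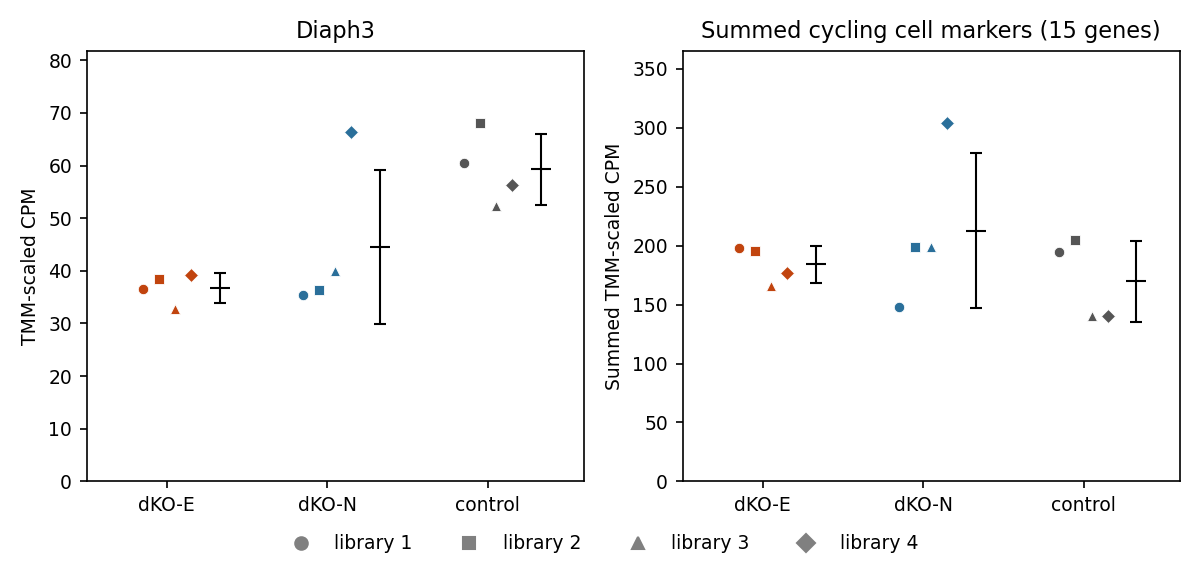
Diaph3 (left) and the summed level of 15 cycling cell markers (right) in TMM-scaled CPM, 1 symbol per library with group mean and SD. The library dKO-N 4 is high in both, at 66.4 CPM and 304 CPM. Diaph3 is lower in dKO-E than in control, and the marker sums are 166 to 198 CPM in dKO-E and 140 to 204 CPM in control. The part of the cycling cells was not tested.

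Crim1 (chromosome 17, 78200248 to 78376592, plus strand), a membrane protein that binds bone morphogenetic proteins, was measured at 140, 127, 127 and 117 CPM in dKO-E, at 113, 106, 92.4 and 108 CPM in dKO-N and at 142, 141, 124 and 131 CPM in control. The dKO-N libraries lay below every other library, and dKO-E overlapped control. Crim1 fell in dKO-N against control (-0.35, SE 0.104, adjusted p = 0.0203), although not without control 1, control 2 or dKO-N 3 (-0.34 to -0.32, adjusted p from 0.0561 to 0.0621). In dKO-E against control it did not pass at -0.076 (95% interval -0.27 to 0.12), nor in dKO-E against dKO-N at 0.28 (0.064 to 0.49, adjusted p = 0.104). Exons of Fez2 lie across those of Crim1 on the other strand, and no source used here says whether the counting kept strands apart. Fez2 averaged 27.6 ± 2.21 CPM in dKO-E, 20.2 ± 6.72 CPM in dKO-N and 30.7 ± 6.59 CPM in control (SD, n = 4 each), and it did not pass in either knockout.

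Igfbp4 (chromosome 11, 99041244 to 99054392, plus strand), a secreted protein that binds insulin-like growth factors, was measured at 22.9, 16.6, 19.1 and 20.7 CPM in dKO-E, at 25.9, 31.7, 16.5 and 19.8 CPM in dKO-N and at 12.4, 16.5, 12.1 and 14.5 CPM in control. All knockout libraries lay above the highest control library, the lowest of them by little. Igfbp4 rose in dKO-N against control (0.75, SE 0.223, adjusted p = 0.0225), but not without control 1, control 3 or dKO-N 2 (0.57 to 0.69, adjusted p from 0.0721 to 0.113). The value in dKO-E against control was 0.51 (95% interval 0.087 to 0.94, adjusted p = 0.0817), and it passed when scaled by library totals (0.64, adjusted p = 0.0289) or fitted with those groups alone (0.51, adjusted p = 0.0471).

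Parm1 (chromosome 5, 91517615 to 91626894, plus strand), a mucin-like membrane protein, was measured at 32.0, 18.2, 23.1 and 24.1 CPM in dKO-E, at 21.8, 17.7, 16.5 and 22.8 CPM in dKO-N and at 16.2, 14.4, 18.1 and 17.0 CPM in control. The dKO-E range began just above the control range, and dKO-N overlapped both. Parm1 rose in dKO-E against control (0.53, SE 0.194, adjusted p = 0.0482). The rise was lost without any of the 4 control libraries or without dKO-E 1, 3 or 4 (0.39 to 0.58, adjusted p from 0.0601 to 0.192). In dKO-N against control Parm1 did not pass, at 0.31 (95% interval -0.12 to 0.74). The library dKO-E 1 was highest in dKO-E for Parm1, Igfbp4, Crym, Crim1 and Tox, and lowest for Pde1a and S100a10. It also had the highest summed level of 8 meningeal markers (Col1a1 and Col1a2 first). That sum was 66.0, 21.1, 5.08 and 3.92 CPM in dKO-E, 4.08 to 10.5 CPM in dKO-N and 2.59 to 7.75 CPM in control. The meninges were not the only list in which dKO-E 1 was the highest dKO-E library. Others included hippocampal neurons (1240 CPM), thalamic neurons (707 CPM), radial glia (647 CPM), astrocytes (327 CPM) and cycling cells (198 CPM). Endothelial and mural cells (112 CPM), the oligodendrocyte lineage (50.3 CPM) and microglia (23.5 CPM) were also highest there. Lowest there were the sums of excitatory cortical neuron markers (982 CPM), upper-layer markers (2920 CPM), layer 5 regulators (2961 CPM) and other layer 5 genes (3100 CPM). Without dKO-E 1, Parm1 was 0.39 (adjusted p = 0.192), Igfbp4 0.45 (adjusted p = 0.179), Crym 0.16 (adjusted p = 0.78), Crim1 -0.12 (adjusted p = 0.483) and Tox -0.93 (adjusted p = 6.56e-09) in dKO-E against control. In the same fit Pde1a was 0.42 (adjusted p = 0.00334) and S100a10 -0.19 (adjusted p = 0.772). The part of the meninges and of these other cells was not tested.

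The last 4 genes encode calmodulin-linked proteins, a partner of annexin A2 and a thyroid hormone binder. Pde1a rose in dKO-E, Crym rose in dKO-N, S100a10 passed in no comparison and Pcp4 was not measurable. Pde1a (chromosome 2, 79834453 to 80129458, minus strand), a phosphodiesterase that breaks down cyclic nucleotides when bound by calcium and calmodulin, was measured at 199, 229, 215 and 212 CPM in dKO-E, at 195, 204, 185 and 160 CPM in dKO-N and at 180, 138, 174 and 159 CPM in control. All dKO-E libraries lay above all control libraries, and dKO-N overlapped both groups. The log2 fold change in dKO-E against control was 0.39 (SE 0.0971, adjusted p = 0.00315), and it passed in all 12 fits that left out 1 library. Pde1a did not pass in dKO-N against control (0.17, 95% interval -0.039 to 0.38) or in dKO-E against dKO-N (0.22, 0.014 to 0.43, adjusted p = 0.191).

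Crym (chromosome 7, 120186380 to 120202111, minus strand) encodes mu-crystallin, which binds thyroid hormone in the cytosol. It was measured at 15.0, 10.9, 9.38 and 3.92 CPM in dKO-E, at 24.5, 15.9, 16.5 and 17.4 CPM in dKO-N and at 6.71, 9.05, 8.64 and 5.68 CPM in control, from 7 to 58 counts per library. All dKO-N libraries lay above all other libraries, and dKO-E overlapped control. Crym rose by 1.27 on the log2 scale in dKO-N against control (SE 0.292, adjusted p = 0.00228), a fold of 2.41 that passed in all 12 fits that left out 1 library. In dKO-E against control it did not pass (0.37, 95% interval -0.23 to 0.98), and the value was 0.16 without dKO-E 1. The difference of -0.90 in dKO-E against dKO-N (SE 0.284, adjusted p = 0.048) passed in 2 of the 12 fits that left out 1 library, those without dKO-E 1 and without dKO-N 2, and the other 10 gave -0.97 to -0.66 with adjusted p from 0.0549 to 0.174.

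S100a10 (chromosome 3, 93555080 to 93564643, plus strand), the partner of annexin A2 at the cell membrane, was measured at 4.57, 7.29, 5.47 and 8.95 CPM in dKO-E, at 2.72, 8.39, 9.65 and 4.81 CPM in dKO-N and at 10.2, 5.33, 5.18 and 11.4 CPM in control, from 2 to 29 counts per library. The 3 groups overlapped. No difference was detectable at this depth, and the 95% intervals of the log2 fold change were wide, -0.97 to 0.39 in dKO-E against control, -1.19 to 0.34 in dKO-N against control and -0.66 to 0.93 in dKO-E against dKO-N. Pcp4 (chromosome 16, 96467606 to 96525793, plus strand), a small calmodulin-binding protein, had 1 count in dKO-N 4 and 0 in the other 11 libraries, of 23593499 counts in genes over all libraries. Neurod1, Pou3f3 and Sox2, listed as markers of other cell groups, also had 0 counts in every library, so a listed 0 is not read as a missing transcript.

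The summed level of the 10 effector genes was 774 to 810 CPM in dKO-E, 725 to 814 CPM in dKO-N and 952 to 1056 CPM in control. Without Tox the sum was 544 to 570 CPM in dKO-E, 434 to 518 CPM in dKO-N and 527 to 577 CPM in control, so that dKO-E then overlapped control and dKO-N stayed below it. Levels can be compared between the genes only per kilobase of gene model. In control, Tox had the highest level at 57.4 ± 4.32 CPM per exonic kilobase (SD, n = 4). Lmo3 at 28.6 ± 2.19, Pde1a at 27.1 ± 3.13 and Crim1 at 22.4 ± 1.46 CPM per exonic kilobase followed, with neighbours in that order overlapping. Diaph3 came next at 10.6 ± 1.22 and S100a10 at 6.62 ± 2.67, then Parm1 at 3.25 ± 0.313 and Igfbp4 at 3.14 ± 0.467, which overlapped each other, and Crym at 2.22 ± 0.470 CPM per exonic kilobase.

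In dKO-E the order began with Pde1a, at 35.5 ± 2.07 CPM per exonic kilobase, above Tox at 30.5 ± 0.760 without overlap. In dKO-N Tox stood at 39.1 ± 5.27 and Pde1a at 30.9 ± 3.15 CPM per exonic kilobase, and their ranges overlapped. Crym stood at 2.89 ± 1.36 in dKO-E, 5.48 ± 1.18 in dKO-N and 2.22 ± 0.470 CPM per exonic kilobase in control, so that in dKO-N it overlapped Igfbp4 and Diaph3 beside it in the order. Per kilobase of the whole gene, introns included, Tox was still highest in control at 1.43 ± 0.108 CPM. Igfbp4 at 1.05 ± 0.157 moved up to the next place, where its range overlapped that of S100a10. Diaph3, the longest of the genes, had the lowest mean with any signal at 0.122 ± 0.0140 CPM, and its range overlapped that of Parm1 at 0.151 ± 0.0145 CPM. Whether reads in introns were counted is not stated.

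**Figure D4:**
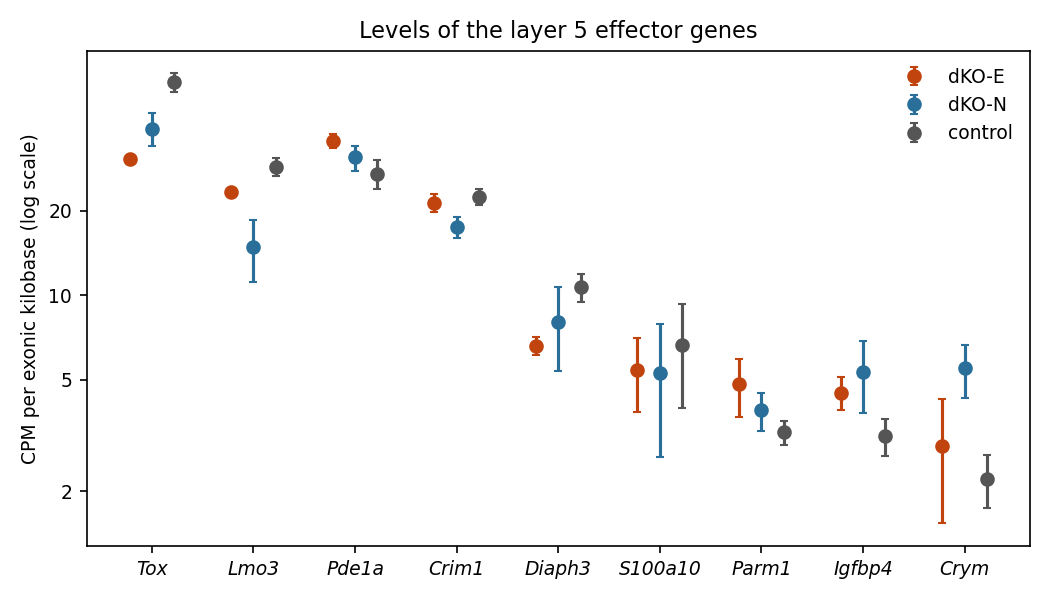
Mean CPM per exonic kilobase with SD (n = 4) of the 9 tested genes in each group, on a log axis, ordered by the control level. Tox is highest in control at 57.4 and Pde1a is highest in dKO-E at 35.5.

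The genes whose pattern over the 12 libraries lay closest to Tox, Lmo3 and Crym were found among 9755 genes by the root mean square difference in centred log2 CPM. For Tox these were Tenm3 at 0.0924, Fhod3 at 0.0934 and Add2 at 0.101. Tenm3, a teneurin adhesion protein, had a log2 fold change of -0.89 in dKO-E and -0.55 in dKO-N against control, beside -0.91 and -0.53 for Tox. For Lmo3 they were Slc24a2 at 0.0944, Sntg2 at 0.162 and Slc24a3 at 0.185, of which Slc24a2 and Slc24a3 encode potassium-dependent sodium and calcium exchangers. Slc24a2 had a log2 fold change of -0.27 in dKO-E and -0.93 in dKO-N against control, and Slc24a3 had -0.27 in dKO-E and -1.08 in dKO-N. For Crym the closest were Nr6a1os at 0.398, Pi4k2b at 0.414 and Il18 at 0.419, which are farther than for Tox and Lmo3, and the average counts of these genes are low.

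The transcription factors and cofactors of layer 5 neurons were read beside the effector genes. Of 9 regulators, all tested, 3 were higher and 3 lower in dKO-E against control, and 1 was higher and 2 lower in dKO-N against control. Over all genes tested, 20.2% passed in dKO-E against control, 11.3% in dKO-N against control and 6.84% between the knockouts. In dKO-E, Bcl11b, a zinc finger factor of subcerebral projection neurons, rose by 0.38 (adjusted p = 0.00371), Foxo1, a forkhead factor, by 0.79 (adjusted p = 0.00337) and Zfp703, a zinc finger protein, by 1.12 (adjusted p = 0.00533). Etv1, an ETS factor of layer 5, changed by -1.03 (adjusted p = 8.11e-07), the bHLH factor Bhlhe22 by -0.61 (adjusted p = 0.000596) and the LIM-domain-binding cofactor Ldb2 by -0.62 (adjusted p = 4.41e-05). All 6 passed in each fit that left out 1 library, and without the libraries labelled control 1 and 3 Bhlhe22 and Zfp703 did not pass.

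In dKO-N, Etv1 changed by -0.54 (adjusted p = 0.0123) and Tshz2, a zinc finger homeobox factor, by -1.21 (adjusted p = 0.0153). Tshz2 did not pass without dKO-N 4 (-1.03, adjusted p = 0.0802), and Etv1 did not pass without the libraries labelled control 1 and 3. Bcl11b rose by 0.30 (adjusted p = 0.0446), which was lost without control 1, 2 or 4, dKO-N 2 or 4, or dKO-E 2, 3 or 4 (0.20 to 0.32, adjusted p from 0.0562 to 0.266). The rise of Bcl11b was also lost without the libraries labelled control 1 and 3 together, and it passed in 6 of all 21 alternative fits. Between the knockouts Ldb2 alone of the 9 passed, at -0.45 in dKO-E against dKO-N (adjusted p = 0.00949), with overlapping ranges. Zfp703 at 1.00 (adjusted p = 0.0545), Etv1 at -0.49 (adjusted p = 0.0591) and Bhlhe22 at -0.33 (adjusted p = 0.154) did not pass, although their ranges did not overlap. The values of Fezf2, which directs the subcerebral fate, were -0.093 in dKO-E (95% interval -0.49 to 0.30) and 0.30 in dKO-N (-0.12 to 0.71), and those of Sox5 were 0.053 in dKO-E and -0.039 in dKO-N, and neither gene passed.

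Of 18 other layer 5 genes, 15 were tested, beside 20.2% of all genes that passed in dKO-E and 11.3% in dKO-N against control. In dKO-E against control 2 were higher and 8 lower, and in dKO-N against control 3 were higher and 9 lower, with a median log2 fold change of -0.49 in each, beside 0.0068 over all genes in dKO-E and 0.014 in dKO-N. The adhesion protein Cntn6 had the lowest value in each knockout, -1.75 in dKO-E (adjusted p = 1.13e-14) and -1.98 in dKO-N (adjusted p = 1.93e-14). Tcerg1l had -1.39 in dKO-E and -1.57 in dKO-N, and Fam84b had -1.73 in dKO-E and -1.26 in dKO-N. Of extracellular proteins, the heparan sulfate sulfatase Sulf1 had -1.42 in dKO-E and -0.90 in dKO-N, the growth factor Ptn -1.36 in dKO-E and -0.81 in dKO-N, and the Dickkopf-family protein Dkk3 -0.85 in dKO-E and -0.66 in dKO-N. Of channel proteins, Pex5l, which binds pacemaker channels, had -0.66 in dKO-E and -0.49 in dKO-N, and the calcium-activated potassium channel Kcnn2 had -0.49 in dKO-E and -0.44 in dKO-N. The cadherin Cdh13 rose in both, by 0.83 in dKO-E and 0.59 in dKO-N, the sulfotransferase Chst8 rose by 1.00 in dKO-E, and the natriuretic peptide receptor Npr3 rose by 0.64 and the follistatin-like gene Fstl5 by 0.33 in dKO-N. Ntng1, a netrin-G adhesion protein, fell by 0.44 in dKO-N.

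All 10 of these calls in dKO-E passed in each fit that left out 1 library, and Kcnn2 did not pass without the libraries labelled control 1 and 3. Without those controls Fam84b, Kcnn2, Pex5l, Ntng1 and Npr3 did not pass in dKO-N. In dKO-N, Pex5l did not pass without dKO-N 2 or 4 (-0.41 and -0.33), Npr3 not without dKO-N 4 (0.50), Ntng1 not without control 1 or 3 or dKO-N 1 or 3 (-0.43 to -0.35), and Fstl5 not without control 1, 2 or 4 or dKO-N 2 or 4 (0.28 to 0.30). Between the knockouts 5 of the 15 passed in dKO-E against dKO-N, against 6.84% of all genes tested. Cdh22, a cadherin, at 1.19, Chst8 at 0.79 and Ntng1 at 0.55 were higher, and Npr3 at -0.65 and Ptn at -0.55 were lower. Cdh22 passed in 2 of the 12 fits that left out 1 library, those without control 4 and without dKO-N 2 (the other 10 gave 1.03 to 1.28). Chst8 did not pass without dKO-N 4 (0.58), Ntng1 not without dKO-E 1 (0.44) and Npr3 not without dKO-N 4 (-0.51) or dKO-E 4 (-0.60).

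**Figure D5:**
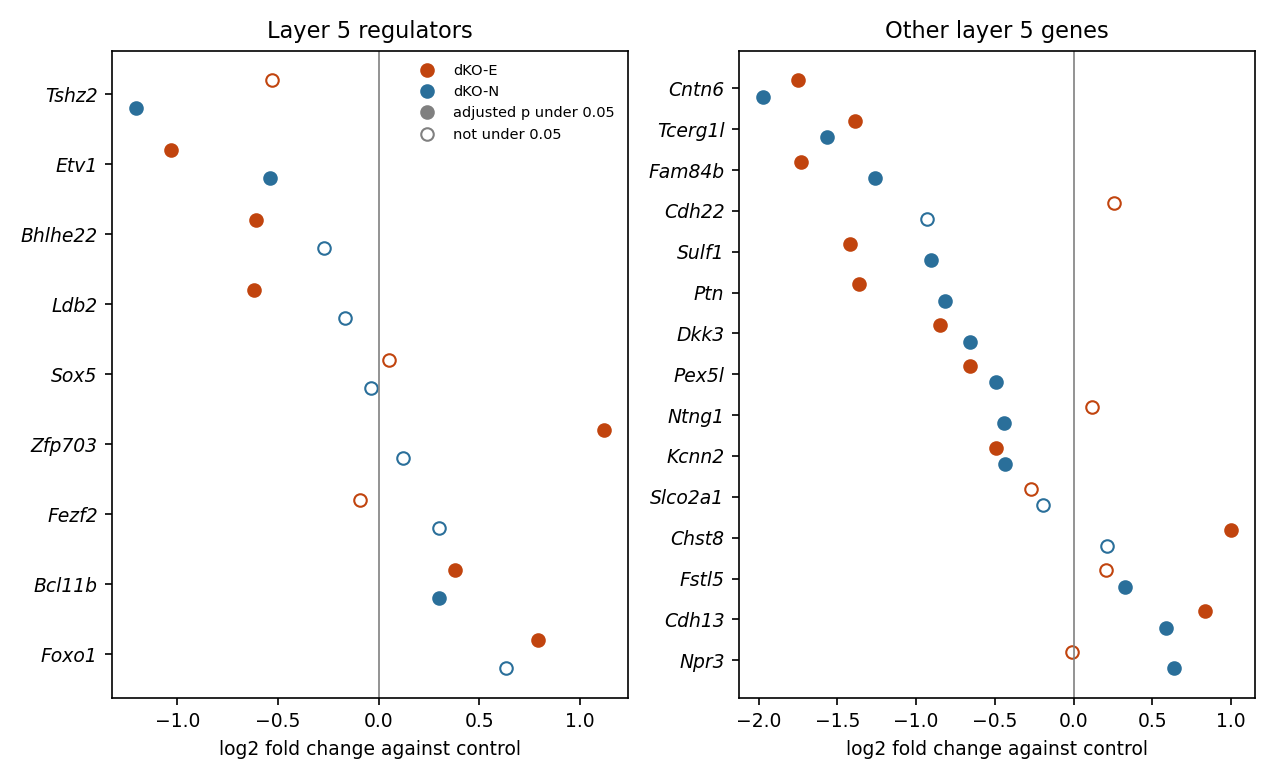
Log2 fold changes against control in dKO-E and dKO-N of 9 layer 5 regulators (left) and 15 other layer 5 genes (right); filled points passed edgeR's test. Among the other layer 5 genes 8 fell in dKO-E and 9 in dKO-N, from -0.44 to -1.98.

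Markers of other cells in the dissected cortex give the setting of these values, and their part in the changes of the effector genes was not tested. Counts of markers that passed, here and for the cell types below, stand beside 20.2% of all genes in dKO-E and 11.3% in dKO-N against control. The lists are short, so a count near those shares is not read as a change of the cell type. Of the excitatory neuron markers, 4 of 7 tested were lower in dKO-E and 3 in dKO-N against control. Cortical interneuron markers (12 genes, Gad1 and Gad2 first) summed to 3046 to 3611 CPM in dKO-E, 3330 to 4024 CPM in dKO-N and 3213 to 4163 CPM in control, and Npy alone of 11 tested passed, lower in each knockout. Upper-layer markers (Cux1 and Cux2 first) were lower for 4 of 7 tested in dKO-E and 2 of 7 in dKO-N, and summed to 2920 to 3905 CPM in dKO-E, 3420 to 4428 CPM in dKO-N and 4113 to 4453 CPM in control. Layer 6 markers (Foxp2 and Tle4 first) were lower for 4 of 5 and higher for 1 in dKO-E, and lower for 1 and higher for 1 in dKO-N, and their sum, which includes the higher gene Nfib, was 3756 to 4264 CPM in dKO-E, 3732 to 4626 CPM in dKO-N and 3405 to 3781 CPM in control. Subplate markers (Nr4a2 and Cplx3 first) summed to 12.2 to 24.6 CPM in dKO-E, 15.2 to 22.8 CPM in dKO-N and 63.5 to 86.9 CPM in control, and of 2 tested 1 was lower in each knockout and 1 higher in dKO-E.

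Markers of progenitors were higher in sum in both knockouts. Intermediate progenitor markers (7 genes, Eomes and Insm1 first) summed to 67.7 to 83.6 CPM in dKO-E, 91.6 to 101 CPM in dKO-N and 39.2 to 51.7 CPM in control, with 2 of 4 tested higher in dKO-E and 3 in dKO-N. Eomes itself did not pass against control, at -0.23 in dKO-E (adjusted p = 0.677) and 0.74 in dKO-N (adjusted p = 0.137), with overlapping ranges. Insm1 rose by 1.16 in dKO-E (adjusted p = 0.000106) and by 1.565 in dKO-N (adjusted p = 2.85e-06). Radial glia markers (10 genes, Pax6 and Sox2 first) summed to 596 to 647 CPM in dKO-E, 581 to 691 CPM in dKO-N and 453 to 548 CPM in control, with 1 of 6 tested higher in dKO-E and 3 in dKO-N. Among non-neural and glial cells, endothelial and mural markers (Cldn5 and Pecam1 first) summed to 79.4 to 112 CPM in dKO-E, 76.2 to 99.4 CPM in dKO-N and 106 to 117 CPM in control, with 1 of 8 tested lower in dKO-E and none in dKO-N. Astrocyte markers (Aqp4 and Aldh1l1 first) summed to 246 to 327 CPM in dKO-E, 197 to 278 CPM in dKO-N and 204 to 243 CPM in control, with 2 of 6 higher in dKO-E. Oligodendrocyte lineage markers (Pdgfra and Olig1 first) summed to 39.7 to 50.3 CPM in dKO-E, 38.8 to 66.2 CPM in dKO-N and 61.8 to 77.0 CPM in control, with 2 of 5 lower in dKO-E. Microglia markers (Csf1r and Cx3cr1 first) summed to 17.6 to 23.5 CPM in dKO-E, 13.8 to 21.6 CPM in dKO-N and 9.54 to 14.7 CPM in control, with 1 of 2 higher in dKO-E.

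Neurons of neighbouring regions can enter a cortical dissection. Of the striatal markers, 3 were tested, Drd1, Ppp1r1b and Rgs9, and their sum was 29.4 to 37.5 CPM in dKO-E, 37.2 to 42.7 CPM in dKO-N and 59.6 to 71.0 CPM in control, so that both knockouts lay below control without overlap. Rgs9 fell in dKO-E (-0.88, adjusted p = 3.85e-05) and in dKO-N (-0.90, adjusted p = 0.000167), Ppp1r1b fell in dKO-E (-1.49, adjusted p = 0.00521), and Drd1 passed in neither. Thalamic markers (Tcf7l2 and Lef1 first) summed to 559 to 707 CPM in dKO-E, 460 to 645 CPM in dKO-N and 632 to 774 CPM in control. Of 3 tested, 1 was higher in dKO-E, and 1 was higher and 1 lower in dKO-N. Hippocampal markers (Prox1 and Zbtb20 first) summed to 882 to 1240 CPM in dKO-E, 982 to 1287 CPM in dKO-N and 852 to 990 CPM in control, with 1 of 4 lower in dKO-E and 1 higher in dKO-N.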

How the data were processed

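RNA of P0 mouse cortex was measured in 12 libraries, grouped by their labels. The authors deposited whole-number counts for each gene, without normalization. The submitters' processing notes name STAR, UMI-tools and HTSeq, and the mm10 build. Their versions, the annotation, strand use and counting options were not given in the sources used here. Every file had 51912 lines for genes and 5 summary lines, which stayed out of library sizes and tests (no feature 6.65% to 8.94%, ambiguous 2.0% to 2.2%, not unique 2.3% to 4.16% of reads). Names and positions are from GENCODE M21 by Ensembl gene identifier without its version, matching 51719 identifiers (99.6%). The version differed for 3 of the 10 genes.

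Counts were filtered with filterByExpr (minimum count 10, 11076 genes, 99.0% of the counts), scaled by TMM and tested with edgeR 4.0.16 (robust quasi-likelihood test, all 12 libraries, 9 residual degrees of freedom, R 4.3.3). P-values were adjusted by the Benjamini-Hochberg method over all genes tested, and the threshold was 0.05. The common biological coefficient of variation was 10.6%. CPM values are TMM-scaled. The steps were tested on simulated data. DESeq2 1.42.0 was an alternative, and others were another scaling (RLE), library totals, no filter, the compared groups alone, a replicate block, equal depth (722080 counts), and leaving out libraries. Plots were made with matplotlib 3.10.9.

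The genes and the gene lists were chosen with earlier results of these data known. Named are the 10 genes, the targeted genes, the layer 5 genes that passed, the first 2 genes of each other list reported, and the 3 genes closest in pattern (average log2 CPM at least 3) to the 3 effector genes with the largest change. Cenpf, Npy, Nfib, Rgs9, Ppp1r1b and the marker genes at 0 counts were named after their values were seen, as was Fez2. No label says that each library is from its own animal, and the p-values therefore measure spread between libraries, which may be technical. Libraries of a group differed by more than sampling noise, with a chi-square of 1.61 to 6.11 per degree of freedom. Floors cover counting error only, and the 95% intervals come from the edgeR fit and include the spread between libraries. One listed marker gene is not reported here. The chromatin and single-nucleus assays that the series names were not analysed here.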

Additional observations from a re-analysis of the deposited data

Results flagged for a closer look

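In Diaph3, dKO-N 4 at 66.4 CPM lay apart from the other 3 dKO-N libraries by a larger share of the group's range than Dixon's 95% critical value. Chance gives about 1 such library in 20 groups, and 1 was found in the 27 groups checked.

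Some layer 5 genes differed between the knockouts by edgeR's test of dKO-E against dKO-N, in log2 fold changes. Among the effector genes these were Lmo3 at 0.69, Crym at -0.90 and Tox at -0.38. Among the other layer 5 genes they were Cdh22 at 1.19, Chst8 at 0.79, Ntng1 at 0.55, Ldb2 at -0.45, Npr3 at -0.65 and Ptn at -0.55.

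Y-linked genes, which no comparison uses, had 1035 counts in dKO-E 3 and 274 in dKO-E 4, against at most 3 in each control library.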

How the results depend on the processing

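Of the 13 calls of effector genes, 7 passed in every alternative, namely Tox and Diaph3 and Pde1a in dKO-E, Tox and Lmo3 and Crym in dKO-N, and Lmo3 between the knockouts. The number of effector genes called in dKO-E against control, 5, was 3 with no filter, with DESeq2, without the libraries labelled control 1 and 3 and without the dKO-E libraries with Y-linked counts, and 3 to 5 without 1 library. In dKO-N against control it was 3 of 5 without control 1 and 3, and 3 to 6 without 1 library. In dKO-E against dKO-N it was 1 of 3 at equal depth and without the Y-linked libraries, and 1 to 4 without 1 library. Genes called overall in dKO-E against control, 2238, were 1225 at equal depth, 1215 without control 1 and 3, 1225 without the Y-linked libraries and 1699 to 2753 without 1 library. In dKO-N against control, 1255 became 754 at equal depth, 756 without control 1 and 3, and 972 to 1298 without 1 library. In dKO-E against dKO-N, 758 became 488 with these groups alone, 326 at equal depth, 199 without the Y-linked libraries, and 300 to 1036 without 1 library, lowest without dKO-N 4. Replicate numbers do not pair the libraries (correlations from -0.119 to 0.0123, and for none of the libraries were both best correlations with the other groups those of its own number). A replicate block gave 3 effector genes in dKO-E against control, 5 in dKO-N against control and 3 in dKO-E against dKO-N, and 1974, 1065 and 500 genes overall across the same comparisons. Under the block Lmo3 (adjusted p = 0.0694) and Parm1 (adjusted p = 0.0501) were not called in dKO-E. Values that were not called and changed sign were Crim1 in dKO-E against control, 0.054 with library totals and 0.032 at equal depth, and S100a10 in dKO-E against dKO-N, -0.10 to 0.31 without 1 library and below 0 without dKO-N 1, dKO-N 4 or dKO-E 4. Scaling by library totals raised the median of all genes to 0.14 in dKO-E and 0.071 in dKO-N against control, and moved the share of calls that were higher to 73.9% in dKO-E, 57.8% in dKO-N and 65.4% between the knockouts, against 50.0%, 44.5% and 45.5% with TMM. Crim1 (dKO-N) and Crym (dKO-E against dKO-N) were also lost with library totals, and Crim1 in dKO-E against dKO-N was called there (0.35, adjusted p = 0.0367). The causes were not tested. Crym and S100a10 rest on the fewest counts, which limits their precision.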
